A study of Mus musculus with 6 samples.

Results

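The genes described here encode the feedback arm of RAS-ERK signalling: the dual-specificity phosphatases Dusp4, Dusp5 and Dusp6, the Sprouty proteins Spry1, Spry2 and Spry4, the SPRED proteins Spred1 and Spred2, and the ETS transcription factors Etv4 and Etv5. They were chosen by name as genes known to be induced by ERK activity or to restrain it. The rule uses no measured value, but the choice was made with earlier results of these data known. All 10 were found among the 54532 genes of the count matrix, and all 10 passed the filter on low counts that left 15203 genes for testing. RNA was sequenced from 6 untreated tumours grown under the skin of Kunming mice, an outbred stock. The tumours arose after inoculation of G422 cells, a glioblastoma line of the mouse. G422 is the source given for all samples. Their cell line tags carry a running number instead, which was taken as a filling error. In the shNgb group (3 tumours) the cells carried a lentiviral short hairpin named for Ngb, which encodes the haem protein neuroglobin, and in the shVec group (3 tumours) they carried the lentiviral vector control. The series title calls the manipulation a knockdown, while its design text speaks of transfection with Ngb itself; the sample titles, which give shNgb or shVec and a replicate number, were used. The number of hairpins, whether each line is a single clone, the age of the mice, and whether each tumour came from its own mouse are not stated. P-values accordingly reflect variation among the 6 tumours as sampled.

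ERK, the last kinase of the cascade that runs from receptor tyrosine kinases through RAS, RAF and MEK, switches on transcription of its own inhibitors. The dual-specificity phosphatases remove phosphate from ERK and related kinases, Sprouty and SPRED proteins act upstream on the steps between receptor, RAS and RAF, and Etv4 and Etv5 carry growth factor signals to target genes. Because their transcripts follow ERK activity in many cell types, they are widely read as a transcriptional record of it, and in gliomas driven by growth factor receptors several of these genes are often expressed at high levels. Transcript level is not kinase activity, and no phosphorylation was measured here.

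Promoter windows from RefSeq (build GRCm38.p6, 250 bases before to 50 after each start site) were found for 7 of the 10 genes in 8 windows. Dusp4, Spry4 and Etv4 were not matched. The stretches printed here are shown because they hold the DNA letters recognised by the factors through which ERK reaches transcription; each is the 120 bases before the earlier of the start sites given by RefSeq and by GENCODE, 5′ to 3′ on the strand of the gene. Capitals mark GGAA or its reverse complement, the core of ETS factor sites, and in Dusp5 also 2 adjoining CArG boxes, the element bound by serum response factor.
Dusp5 chr19:53528989-53529108, plus strand: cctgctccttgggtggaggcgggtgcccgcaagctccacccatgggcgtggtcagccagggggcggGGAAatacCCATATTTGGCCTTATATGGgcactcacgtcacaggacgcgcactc
Dusp6 chr10:99263111-99263230, plus strand: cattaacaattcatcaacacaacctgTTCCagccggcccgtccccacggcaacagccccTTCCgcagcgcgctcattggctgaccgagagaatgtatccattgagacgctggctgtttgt
Spry2 chr14:105896820-105896939, minus strand: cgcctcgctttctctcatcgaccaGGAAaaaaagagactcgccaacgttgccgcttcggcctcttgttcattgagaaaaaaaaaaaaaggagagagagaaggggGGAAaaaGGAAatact

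The CArG boxes of Dusp5 begin 82 and 72 bases before its RefSeq start site, and a GGAA begins 90 bases before it. A CArG box was present in 1 of the 7 genes with a window and in 1.63% of all 32851 windows of 300 bases. GGAA was present in at least 1 window of all 7 genes and in 96.0% of windows, so it does not distinguish them from promoters at large. An Etv5 window, that at chr16:22439521-22439820, held 0 matches. The longer ETS sequence CCGGAA, which contains GGAA, was found in 1 of the 7 genes, 33 bases into the transcript of Spry2, against 14.9% of windows. The cyclic AMP response core GACGTC was found in 1, Spred2, against 4.40% of windows, and the AP-1 sequence TGANTCA in none of the 7, against 7.81%. Both strands were searched. GGAA and the CArG box were added to the search after the windows had been seen, and a match describes letters in a window, not a bound site.

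Libraries held between 19630319 and 25620667 reads assigned to genes. The target of the hairpin was sparsely sequenced: Ngb had 28, 23 and 13 reads in shVec tumours 1, 2 and 3, and 18, 19 and 11 in shNgb tumours 1, 2 and 3. In CPM, a read count relative to the TMM-scaled size of its library, this was 1.03 ± 0.33 (SD, n = 3) against 0.69 ± 0.24. The fold in shNgb relative to shVec had a 95% confidence interval from 0.341 to 1.29, and the groups overlapped. A lower Ngb transcript was thus not detectable with these reads and 3 tumours a group. No gene of the 15203 was called at an adjusted p under 0.05 (0% called; smallest adjusted p = 0.9997 by edgeR's quasi-likelihood test with Benjamini-Hochberg adjustment), and at an unadjusted p under 0.05 there were 186 lower genes (1.22%) and 206 higher genes (1.35%). Of 9 neural and glial markers, Olig2 had 0 reads in all 6 libraries, where 3 reads would have been 0.115 to 0.153 CPM, Gfap had 0 to 6 reads, Fabp7 0 to 8 and S100b 2 to 6. Nes (383 to 545 CPM) and Vim (4607 to 5220 CPM), which many mesenchymal cells also express, were abundant, and Sox2 stood between 13.8 and 22.6 CPM. Nes was lower in shNgb without overlap, at 506 ± 35.3 against 414 ± 28.7 CPM (log2 fold change -0.29, SE 0.08), with an unadjusted p of 0.00652 and an adjusted p of 0.9997 by edgeR's quasi-likelihood test. Of the 5 markers of this list that were tested, 4 had negative log2 fold changes and 1, Tubb3 (0.26), positive. The groups of Vim (-0.02), Cd44 (-0.07), Sox2 (-0.11) and Tubb3 overlapped. The tumours are bulk tissue, in which fewer cells of a type and less RNA per cell cannot be told apart.

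None of the 10 feedback genes passed the test between shNgb and shVec. Their log2 fold changes (shNgb minus shVec, so that a negative value is lower in shNgb) ran from -0.42 for Dusp4 to 0.11 for Etv4, with a median of -0.09 against 0.00 over all tested genes. The value was negative for 8 genes and positive for 2, while 49.1% of all tested genes were negative. Groups did not overlap for 1 of the 10, Dusp4, which was lower in shNgb; over all tested genes, 3.43% were lower without overlap and 3.67% higher. An unadjusted p under 0.05 was found for the same gene alone. All 10 confidence intervals lay between a fold of 0.5 and a fold of 2, which held for 76.5% of all tested genes. The outermost bounds were folds of 0.553 for Spry4 and 1.65 for Spry1, and the interval ran from 0.921 to 1.20 for Spred1 and from 0.927 to 1.25 for Etv4.

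**Figure D1:**
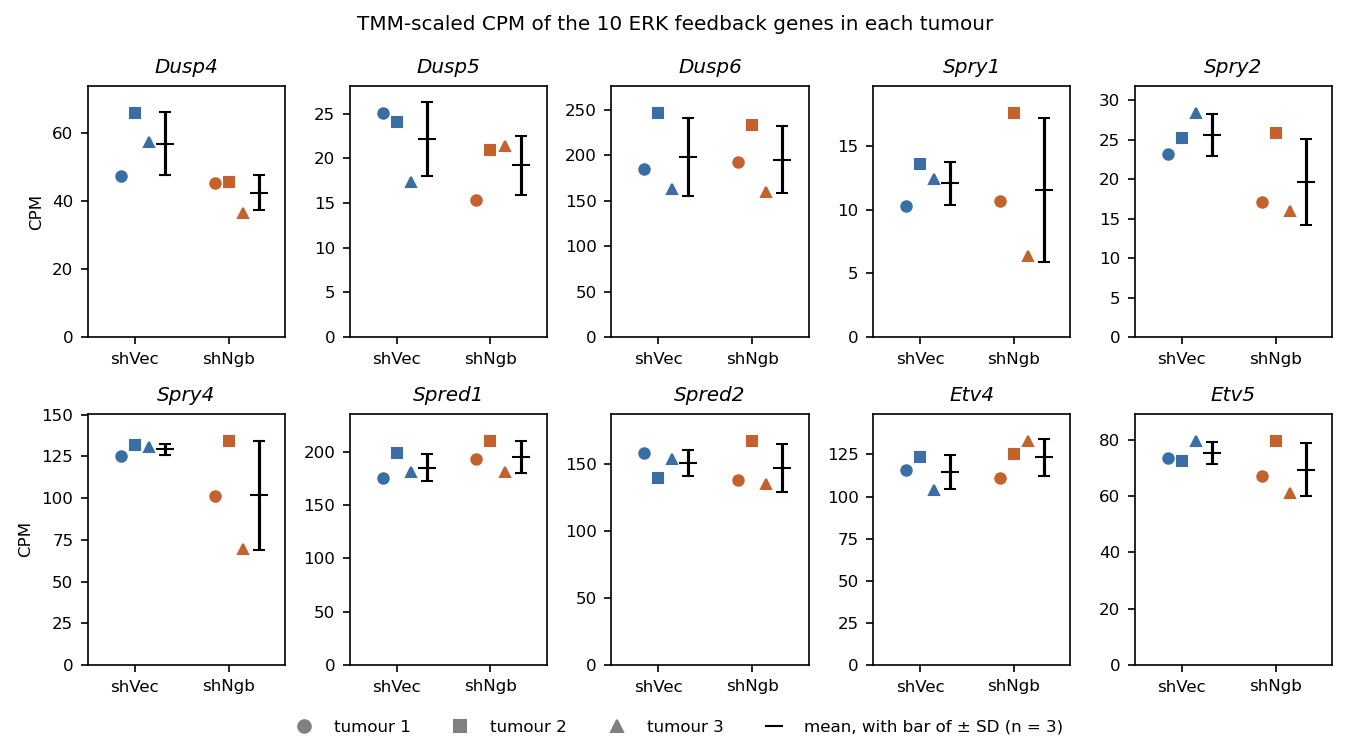
CPM (scaled by TMM, y axis from 0) of each of the 10 genes in 3 shVec tumours (blue) and 3 shNgb tumours (orange); the symbol gives the tumour number and the black bar the mean ± SD. Dusp4 has no overlap between groups, and the shNgb tumours are widely spread for Spry1 and Spry4.

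Dusp4 encodes a nuclear phosphatase that acts on ERK and on the stress kinases JNK and p38; the gene lies at chr8:34807297-34819894 on the plus strand (GRCm38, GENCODE M21). It measured 47.4, 65.9 and 57.3 CPM in shVec tumours 1, 2 and 3 and 45.2, 45.7 and 36.6 CPM in shNgb tumours 1, 2 and 3. The highest shNgb tumour was just below the lowest shVec tumour, and shNgb 3 was lowest of all. The means were 56.9 ± 9.25 and 42.5 ± 5.08 CPM (SD, n = 3 each). The log2 fold change was -0.42 (SE 0.14, 95% confidence interval -0.73 to -0.11), which is 0.747 of the shVec level. Its unadjusted p of 0.0141 by edgeR's quasi-likelihood test ranked 93 among the 15203 genes, and the adjusted p was 0.9997, so the difference did not pass. Leaving out 1 tumour at a time moved the log2 fold change between -0.54 and -0.30. That it stayed negative adds nothing, since the groups did not overlap to begin with.

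Dusp6, the cytoplasmic phosphatase that acts almost only on ERK and the usual readout of the pathway, lies at chr10:99263231-99267489. It stood at 184, 246 and 163 CPM in the shVec tumours and at 193, 233 and 159 CPM in the shNgb tumours. Tumour 2 was the highest and tumour 3 the lowest in each group, and the groups spanned almost the same range. The means, 198 ± 43.3 and 195 ± 36.8 CPM, gave a log2 fold change of -0.02 (SE 0.18), with an interval from -0.45 to 0.41, or 0.730-fold to 1.33-fold. The sign turned without shVec 2 (0.16) or without shNgb 3 (0.10).

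Dusp5, the nuclear counterpart that is specific for ERK and whose promoter stretch carries the CArG boxes printed above, lies at chr19:53529109-53542431. Its levels were 25.1, 24.0 and 17.4 CPM in shVec and 15.4, 20.9 and 21.4 CPM in shNgb. The lowest tumours were shNgb 1 and shVec 3, and the groups overlapped. This gave a log2 fold change of -0.21 (SE 0.18, interval -0.61 to 0.20). Annotation places an antisense gene across 547 exon bases of Dusp5, and with a kit that does not mark strand its reads could not be told apart from those of Dusp5.

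The 3 phosphatases kept 1 order of abundance in every tumour. On the deposited FPKM scale, which divides by gene length and so allows genes to be compared, Dusp6 stood at 62.3 ± 11.3 (SD over 6 tumours), Dusp4 at 18.0 ± 3.77 and Dusp5 at 8.32 ± 1.51. Dusp6 made up 65.1% to 74.7% of their summed FPKM. The ratio of Dusp6 to Dusp4, looked at only after the values had been seen, was 3.40, 3.27 and 2.49 in shVec and 3.73, 4.46 and 3.80 in shNgb. The groups did not overlap. As the ratio was picked with its values in view, no test is given, and other gene pairs were not compared.

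Sprouty proteins interfere with signalling between receptor tyrosine kinases and RAF, through adaptors such as GRB2. Spry4 was the most abundant of the family, at 25.0 ± 5.55 FPKM, ahead of Spry2 at 10.8 ± 2.39 and Spry1 at 4.03 ± 1.27, and this order held in all 6 tumours. Spry4 supplied 60.6% to 65.1% of their sum.

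Spry4 (chr18:38586247-38601415, minus strand) measured 125, 132 and 130.5 CPM in the shVec tumours and 101.5, 134 and 69.2 CPM in the shNgb tumours. The shVec tumours were nearly alike, and the shNgb tumours ran from the highest value of the 6 to the lowest. The coefficient of variation was 2.74% in shVec and 32.1% in shNgb. Tumours 1 and 3 of shNgb lay below every shVec tumour. The log2 fold change was -0.35 (SE 0.22, interval -0.86 to 0.16). Without shNgb 3 the value was -0.13, without shNgb 1 it was -0.35, and without shNgb 2 it was -0.60.

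Spry2 (chr14:105891947-105896819, minus strand) had 23.2, 25.2 and 28.4 CPM in shVec and 17.1, 25.9 and 16.0 CPM in shNgb. Tumours 1 and 3 of shNgb lay below every shVec tumour, and shNgb 2 lay among them. The log2 fold change was -0.38 (SE 0.19), its interval reached from -0.81 to 0.05, and edgeR's quasi-likelihood test gave an unadjusted p of 0.0742. Leaving out shNgb 2 moved it to -0.63 and leaving out shNgb 3 to -0.25.

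Spry1 (chr3:37639947-37644598, plus strand) had 10.2, 13.6 and 12.4 CPM in shVec and 10.7, 17.6 and 6.32 CPM in shNgb. The shNgb tumours 2 and 3 were the highest and the lowest of all 6, and the coefficient of variation was 49.1% in shNgb against 13.9% in shVec. The log2 fold change was -0.06 (SE 0.34), and its interval, -0.85 to 0.72, was the widest of the 10 genes. Without shNgb 2 the value was -0.51, and it was positive without shNgb 3 (0.23) or without shVec 2 (0.03). A gene annotated on the other strand shares 710 exon bases with Spry1 and had 26 reads over the 6 libraries.

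SPRED proteins bring neurofibromin, the RAS inhibitor encoded by Nf1, to the membrane, and their transcripts, with that of Etv4, had the smallest standard errors of the 10 genes. Spred1 (chr2:117121374-117182279) measured 175, 199 and 180.5 CPM in shVec and 193, 210.2 and 180.6 CPM in shNgb. These ranges overlapped, with shNgb 2 highest and shVec 1 lowest. The log2 fold change was 0.07 (SE 0.09, interval -0.12 to 0.27). Spred2 (chr11:19924375-20024026) measured 158, 139.8 and 154 CPM in shVec and 138, 167 and 135 CPM in shNgb, with a log2 fold change of -0.04 (SE 0.10, interval -0.26 to 0.19). Its highest tumour was shNgb 2 and its lowest shNgb 3, and its sign turned without shNgb 3 (0.019) or without shNgb 1 (0.0035). Spred2 exceeded Spred1 in FPKM in each tumour, at 31.99 ± 2.75 against 27.8 ± 1.91. This order rests on the length factor of FPKM, since in CPM Spred1 was the higher in each tumour.

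Etv4 and Etv5 belong to the PEA3 group of ETS factors. Etv4 (chr11:101769742-101785371, minus strand) stood at 116, 124 and 104 CPM in shVec and 111, 125 and 133 CPM in shNgb. Tumour 3 gave the lowest value of shVec and the highest of shNgb, the group in which 8 of the 10 genes were lowest in tumour 3. Between the groups, the log2 fold change was 0.11 (SE 0.10, interval -0.11 to 0.33). Etv5 (chr16:22381309-22439719, minus strand) stood at 73.6, 72.6 and 79.7 CPM in shVec and 67.2, 79.7 and 61.2 CPM in shNgb. Its shNgb tumours 1 and 3 lay below all shVec tumours, which gave a log2 fold change of -0.12 (SE 0.11) with an interval from -0.36 to 0.12. An annotated copy, Gm4798, matches 1700 bases of the Etv5 transcript at 98.6% and had 26 reads over the 6 libraries. Etv4 was the more abundant in each tumour, at 38.0 ± 3.31 FPKM against 17.5 ± 1.74.

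**Figure D2:**
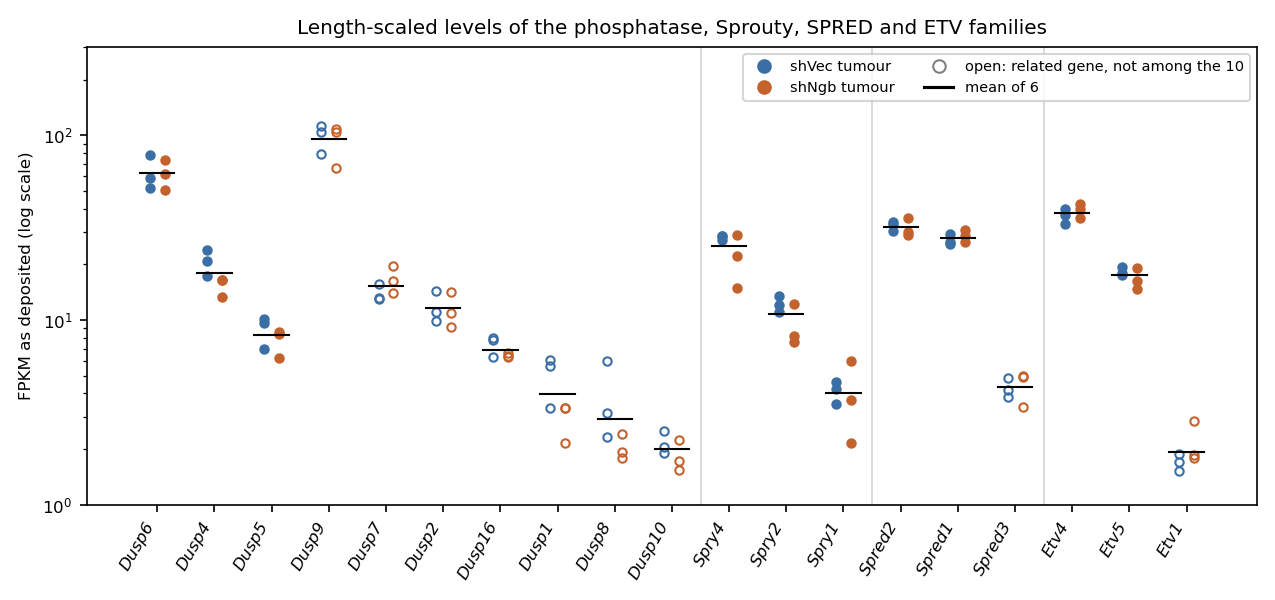
Deposited FPKM (log axis) of the 10 feedback genes (filled) and related genes of the same families (open) in each shVec (blue) and shNgb (orange) tumour, with the mean of 6 as a line. Spry4 exceeds Spry2 and Spry1, and Etv4 exceeds Etv5 and Etv1, in every tumour.

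Across the 10 genes, mean FPKM fell in the order Dusp6, Etv4, Spred2, Spred1, Spry4, Dusp4, Etv5, Spry2, Dusp5 and Spry1. Dusp6 was above 94.6% of all tested genes in mean FPKM, and Spry1 above 43.3%. Some neighbours in this order could not be separated over the 6 tumours: Spred1 exceeded Spry4 in 4 of 6, Dusp4 exceeded Etv5 in 3 of 6, and Spry2 exceeded Dusp5 in 5 of 6. Each other neighbouring pair kept its order in 6 of 6, and the ranges of the pair did not overlap for Dusp6 above Etv4, Etv5 above Spry2, and Dusp5 above Spry1.

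Within the shNgb group most of the genes ordered the tumours alike, a pattern noticed after the values had been seen and given as a description. Of the 10 genes, 8 were highest in shNgb 2 and lowest in shNgb 3, the exceptions being Dusp5 and Etv4. This order was found in 20.9% of all tested genes. It held for all 3 Sprouty genes and both SPRED genes, for 3 of 7 other MAPK phosphatases and 2 of 5 paralogues and further feedback genes, and for 6 of 18 genes of the RAS-ERK cascade and 1 of 11 ERK output genes. In 7 of the 10 genes shNgb 3 was the lowest of all 6 tumours. The median of the 10 genes' log2 CPM, each centred on its mean over the 6 tumours, was 0.00, 0.21 and 0.09 in shVec 1, 2 and 3 and -0.10, 0.16 and -0.26 in shNgb 1, 2 and 3. The median log2 fold change of the 10 genes moved from -0.09 to -0.25 without shNgb 2 and to -0.01 without shNgb 3. Leaving out shNgb 2, the highest of its group for 8 of the genes, left 5 genes lower in shNgb without overlap (9.05% of all tested genes), a count that this choice of tumour favours. Leaving out shVec 3 left 2 (5.91%), and leaving out any of the other 4 tumours left 1.

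**Figure D3:**
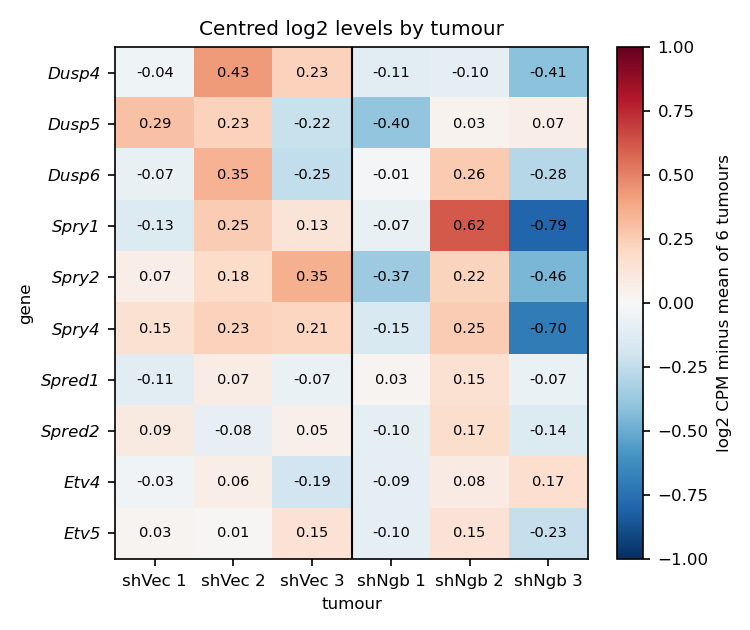
Log2 CPM of each gene (rows) in each tumour (columns) minus the gene's mean over the 6 tumours; red is above and blue below that mean. The column of shNgb 3 is below the mean for 8 of the 10 genes, down to -0.79 for Spry1, and the column of shNgb 2 is above it for 9.

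Markers of host cells also differed between these tumours. The summed CPM of 8 T and NK cell markers was 4.60, 16.9 and 2.95 in shVec 1, 2 and 3 and 3.13, 14.6 and 34.0 in shNgb 1, 2 and 3. The sum of 8 macrophage markers was 93.0, 184 and 155 in shVec and 111, 231 and 284 in shNgb, and that of 6 B and plasma cell markers was 4.01, 2.47 and 2.09 in shVec and 2.99, 9.26 and 12.95 in shNgb. Fibroblast markers (7 genes, mostly Col3a1) summed to 2015, 1741 and 1820.2 in shVec and to 2443, 2049.9 and 1171 in shNgb. The tumour shNgb 3, lowest for 7 of the 10 feedback genes, was thus highest for the 3 immune sums and lowest for the fibroblast sum. That low sum came mostly from Col3a1 (605 CPM in shNgb 3, against 1345 to 1666 in the others). In shNgb 3, Postn (53.2 CPM) and Lum (0.115 CPM, from 3 reads) were also lowest of the 6 tumours, and Dcn (3.79 CPM) was second lowest. By contrast, Col1a1 (281), Col1a2 (174) and Pdgfra (53.8) were each second highest of the 6 tumours there. Of 6 fibroblast markers tested, 5 had positive log2 fold changes, and Col1a1 was higher in shNgb without overlap (log2 fold change 0.86, SE 0.23; unadjusted p = 0.00760 and adjusted p = 0.9997 by edgeR's quasi-likelihood test). All tested markers of the 3 immune lists also had positive values: 7 of T and NK cells, 8 of macrophages and 3 of B and plasma cells. Over all tested genes, 49.1% were negative. The groups of these immune markers overlapped, and none was called. By edgeR's quasi-likelihood test, Igha (unadjusted p = 0.0397) and Jchain (unadjusted p = 0.0410) were under 0.05. So was the fibroblast marker Col1a2 (unadjusted p = 0.0185), whose groups overlapped. Over all tested genes, 1.35% were higher at this threshold. The neural and glial sum, carried by Vim, ranged from 5396 to 6004, the endothelial sum of 6 markers from 47.6 to 62.0, and the sum of 6 skeletal muscle markers from 5.98 to 20.7. Their part in the result was not tested.

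The other genes of the pathway were read from lists taken from general knowledge of the pathway, and no gene of any list was called. Of 7 further MAPK phosphatases, all tested, 6 had negative log2 fold changes and 1 positive, with a median of -0.19 (49.1% of all tested genes were negative), and 2 had an unadjusted p under 0.05 and were lower (1.22% of all tested genes). These were Dusp1, an immediate-early nuclear phosphatase, at 13.6 ± 4.03 CPM in shVec and 8.02 ± 1.83 in shNgb (log2 fold change -0.76, SE 0.26), and Dusp8, which acts on JNK and p38, at 18.6 ± 9.35 and 10.01 ± 1.63 CPM (-0.89, SE 0.34). Their groups overlapped. Dusp7, a cytoplasmic ERK phosphatase like Dusp6, was the positive member, at 46.9 ± 4.97 and 56.3 ± 9.95 CPM (0.27, SE 0.14), and Dusp16, which acts on JNK and p38, had -0.19 (SE 0.10). Dusp9, outside the rule for naming and chosen after its values were seen, had the highest FPKM of the 10 MAPK phosphatases in 5 of 6 tumours, at 95.2 ± 18.2; Dusp6 was the highest in shNgb 2.

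Of 6 paralogues and further feedback genes, Spry3 was not matched and 5 were tested, 3 with negative and 2 with positive log2 fold changes (median -0.04). Errfi1, an inhibitor of the EGF receptor, stood at 229 ± 35.4 CPM in shVec and 170 ± 55.3 in shNgb (-0.43, SE 0.23). Etv1, the remaining PEA3 factor, stood at 22.7 ± 2.32 and 28.9 ± 7.89 CPM (0.35, SE 0.18). Il17rd, also called Sef, had -0.12 (SE 0.40) and Spred3 0.05 (SE 0.17).

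The cascade had the narrowest range of the 4 lists. All 18 of its genes, from the adaptors Shc1 and Grb2 to Map2k1, had log2 fold changes between -0.15 and 0.10 (11 negative, 7 positive, median -0.02), and all 18 intervals lay between folds of 0.5 and 2. Groups did not overlap for 2 of them, both lower in shNgb, against 3.43% lower and 3.67% higher over all tested genes: Sos1, which loads RAS with GTP, at 81.3 ± 2.10 and 74.5 ± 2.80 CPM, and Map2k1, which encodes the ERK kinase MEK, at 128 ± 1.71 and 122 ± 2.82 CPM. Among the other cascade genes, the values for Nf1 and Sos2 were -0.15 and -0.14 on the log2 scale (SE 0.10 each).

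Of 12 ERK output genes, 11 were tested, since Epha4 did not pass the filter, and 8 had negative and 3 positive log2 fold changes (median -0.08). Those of smallest p were Ier3, an immediate-early gene, at 110.0 ± 13.4 and 73.0 ± 33.9 CPM (-0.59, SE 0.32), the receptor tyrosine kinase Epha2 at 90.4 ± 7.76 and 79.3 ± 10.2 CPM (-0.19, SE 0.11), Myc at 318 ± 89.9 and 229.7 ± 70.1 CPM (-0.47, SE 0.28), and the AP-1 subunit Fosl1 at 135 ± 23.1 and 121 ± 15.2 CPM (-0.16, SE 0.14). The groups of each overlapped. Differences between these lists were not tested.

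**Figure D4:**
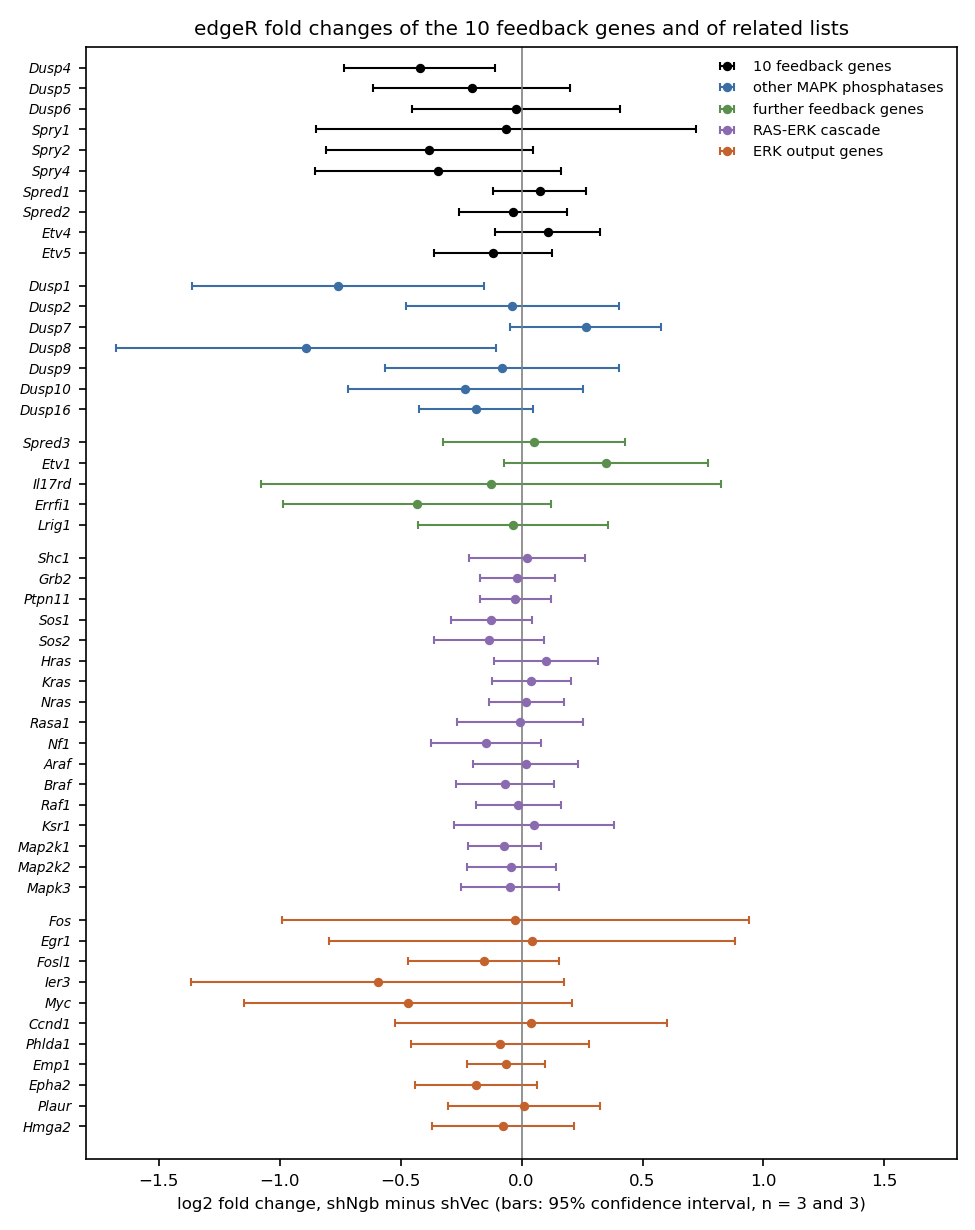
Log2 fold change (x axis, shNgb minus shVec) with its 95% confidence interval, from edgeR, for the 10 feedback genes (black) and the 4 lists of related genes, except 1 gene that is not reported here. The intervals of 9 of the 10 feedback genes include 0; that of Dusp4 does not, before adjustment for the 15203 genes tested.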

How the data were processed

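Per the labels' protocols, total RNA of 6 subcutaneous tumours was extracted with Trizol and made into libraries with the Illumina TruSeq RNA kit, which does not mark strand. Per the submitters' processing notes, which give no roles, Bowtie 0.12.2 and 2 builds, mm8 and mm10, were used. How reads were counted, and on which annotation, is not given in the sources used here. Read counts were deposited per gene ID (19630319 to 25620667 reads a library), without normalization, beside FPKM values per library. In 11113 genes with over 50 reads in every library, the deposited FPKM was proportional to the read count, with 1 factor per gene and 1 per library; FPKM served only to compare levels between genes.

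GENCODE M21 (GRCm38) named 54409 of 54532 IDs; the 123 others stayed in the tests. Group tests on the counts used edgeR 4.0.16 under R 4.3.3 (filterByExpr, TMM scaling, robust quasi-likelihood F-test, Benjamini-Hochberg adjustment over 15203 genes, threshold 0.05), after the procedure had been tested on simulated data. Standard errors were derived from the F statistic. Groups came from sample titles. The sample titles do not say whether replicate numbers pair the tumours, and the main fit did not pair them.

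The 10 genes and the lists were chosen with earlier results of these data known. The text names Ngb, the 10 genes, up to 4 tested genes of smallest p per pathway list, and the cell markers; any other gene is marked as picked with its values in view. In the RAS-ERK list, 1 gene enters the counts and is not reported by name. Alternatives were other scalings, filters, tools (DESeq2 1.42.0, limma-voom 3.58.1), a replicate block, a threshold of 0.1, and leaving out each library.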

Additional observations from a re-analysis of the deposited data

How the results depend on the processing

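The count of called genes was 0 under RLE and upper quartile scaling, the stricter filter, limma-voom, an adjusted p threshold of 0.1 and each of 6 fits without 1 library. It was 3 without the expression filter (all lower in shNgb), 5 with DESeq2 (2 higher) and 1 with the replicate number as a block (lower); none of the 10 feedback genes was among them. At an unadjusted p under 0.05 there were 392 genes with edgeR, 477 with DESeq2 and 410 with limma-voom. Correlations of same-numbered deviations were 0.27, -0.19 and -0.11, and those between different numbers ran from -0.28 to 0.36. With 3 tumours a group, these cannot decide whether replicate numbers pair the tumours. Over the 7 settings that kept all libraries, all 70 log2 fold changes of the 10 genes kept their direction and none passed (smallest adjusted p = 0.792). The median log2 fold change was -0.15 with the replicate block, -0.16 with limma-voom and -0.10 with DESeq2. Without 1 library each, 54 of 60 values kept their direction and none passed. For Dusp4, whose groups did not overlap, the direction was all but fixed beforehand. The ranges were -0.17 to 0.16 for Dusp6, -0.51 to 0.23 for Spry1, -0.14 to 0.019 for Spred2 and -0.36 to -0.07 for Dusp5, and -0.25 to -0.01 for the median. The number of genes whose groups did not overlap ranged from 1 to 5 lower (1 with all libraries) and from 0 to 1 higher, while over all tested genes the share ranged from 5.91% to 9.40% lower and from 6.32% to 10.1% higher (3.43% and 3.67% with all libraries). With 3 tumours a group, differences smaller than the intervals printed above were not detectable, and larger ones could also go uncalled. The interval of Dusp4 excluded 0, yet its adjusted p was 0.9997 by edgeR's quasi-likelihood test. Ngb had only 11 to 28 reads a library, and the part of depth in its wide interval was not tested.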
